A study of Caenorhabditis elegans with 2 samples.

Results

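The genes described here encode the nuclear pore complex of the nematode Caenorhabditis elegans, the importins and exportins that carry cargo through it, and the small GTPase Ran with its exchange factor. They were taken by name: every protein-coding gene called npp-, imb- or ima- followed by a digit, plus ran-1, ran-3, xpo-1 and xpo-2. This gave 36 of the 19973 protein-coding genes annotated on the nuclear chromosomes, 26 of them npp genes and 10 genes of importins, exportins and the Ran cycle. ChIP-seq, the sequencing of chromatin fragments pulled down with an antibody, was carried out for F13C5.2, a bromodomain protein. The animals were of strain OP605, which carries the unc-119(tm4063) mutation and the integrated transgene wgIs605, and so expresses F13C5.2 with a C-terminal GFP-FLAG tag. Antibody against GFP was used on whole early embryos of mixed sex, collected 1 hour after bleaching. The 2 biological replicates, numbered 2 and 3 in the labels, form 1 group of 1 strain, so only places in the genome and the replicates can be compared. How strongly and in which cells the transgene is expressed is not stated in these sources.

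The nuclear pore is a ring-shaped channel through the nuclear envelope, built from repeated copies of proteins called nucleoporins. An outer ring and an inner ring form the scaffold, membrane proteins anchor it, and nucleoporins with phenylalanine-glycine repeats fill the central channel. Importins and exportins move cargo through that channel, and their loading is set by Ran, which is kept in its GTP form inside the nucleus by the chromatin-bound exchange factor RCC1. In early worm embryos cell divisions follow each other quickly, and pores are taken apart and rebuilt at every division. Bromodomains bind acetylated lysines, such as those on histone tails.

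A gene is called occupied here when the summit of a peak lies from 1000 bp upstream to 200 bp downstream of one of its annotated 5′ ends. The main list is the authors' optimal list under the irreproducible discovery rate (IDR), a procedure that compares peak ranks between replicates. It holds 1850 peaks with deposited signal scores from 77.9 to 611 and a median of 107. All 1850 are also the highest scores of the list called on both replicates together, the pooled list, which like each replicate list holds 30000 peaks and reaches deep into background. The scale of the score and the read depth behind it are unknown, so scores are compared only within a list and lists only by rank.

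Of the 36 genes, 15 were occupied by an IDR summit, which is 41.7% (95% Wilson interval 27.1 to 57.8%, counting error only). Of all protein-coding genes, 1700 of 19973 or 8.51% were occupied. Nucleoporin genes had 10 of 26 occupied, and importin, exportin and Ran genes 5 of 10. The occupied genes were npp-3, npp-6, npp-7, npp-8, npp-9, npp-12, npp-14, npp-16, npp-19, npp-25, ima-1, imb-1, imb-3, ran-1 and ran-3. Their signal had a median of 113, close to the 109 of all occupied genes, and ran from 90.6 at imb-1 to 273 at npp-8. So these genes were reached by a summit more often than protein-coding genes as a whole, while the peaks themselves were mostly of middling strength. The genes were not matched to others on expression, and no list from a strain without the tag was analysed here, so the part of non-specific recovery was not tested.

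**Figure D1:**
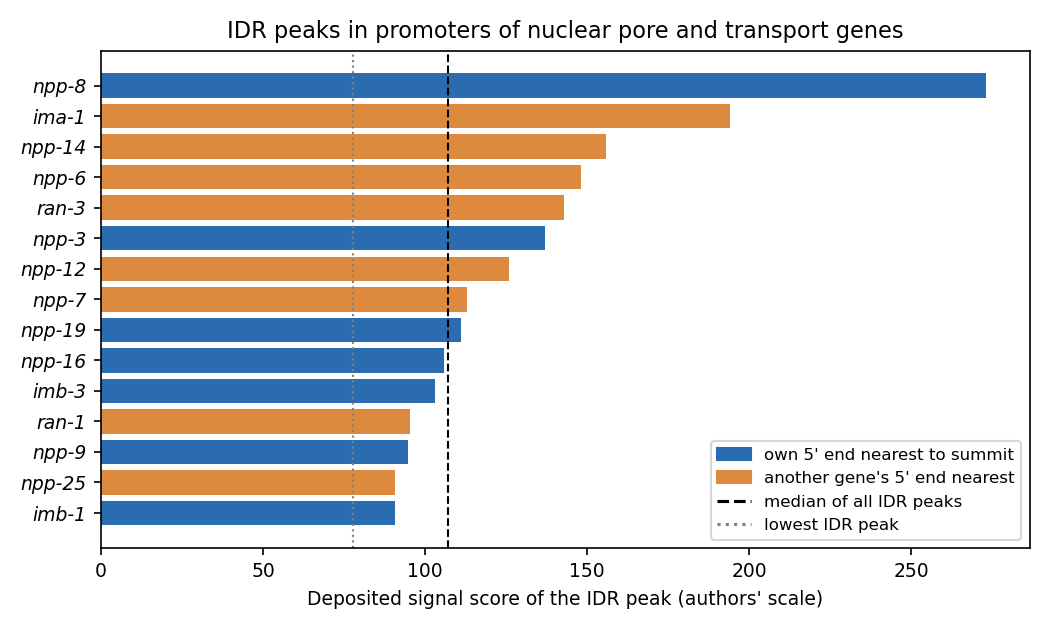
Deposited signal score (horizontal axis, authors' scale, 1 value per peak with no replicate error) of the IDR peak in the promoter of each of the 15 occupied genes. Blue bars are summits nearest to the gene's own 5′ end and orange bars summits nearest to another gene's, the dashed line is the median of all IDR peaks and the dotted line the lowest. npp-8 stands far above the others at 273, followed by ima-1 at 194, and 6 genes lie below the median.

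More of these genes had a summit farther down the pooled list. With pooled peaks down to rank 4000, 23 of the 36 genes (63.9%) had a summit in the promoter, against 14.8% of all genes. This cutoff was chosen after seeing the data. The 8 genes that entered between rank 1851 and 4000 were 38.1% of the 21 unoccupied ones, while 6.83% of all unoccupied genes entered there. Over the whole pooled list 31 of 36 genes (86.1%) had a summit, against 39.2% of all genes. The lowest occupied gene was imb-1 at rank 1373 with a signal of 90.6, and the highest unoccupied ones were npp-20 at pooled rank 2446 (67.5) and xpo-2 at 2461 (67.3). By pooled rank, no gene of the set therefore lies between 1373 and 2446, the range in which the IDR list ends. Some calls still changed in lists of the same length from single replicates, and not only near this boundary. Among the genes that changed, npp-19 had IDR rank 855 and imb-3 had 1037. With replicate 2 alone, imb-1 and imb-3 were lost and npp-20 was gained. With replicate 3 alone, npp-19 and npp-25 were lost.

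**Figure D2:**
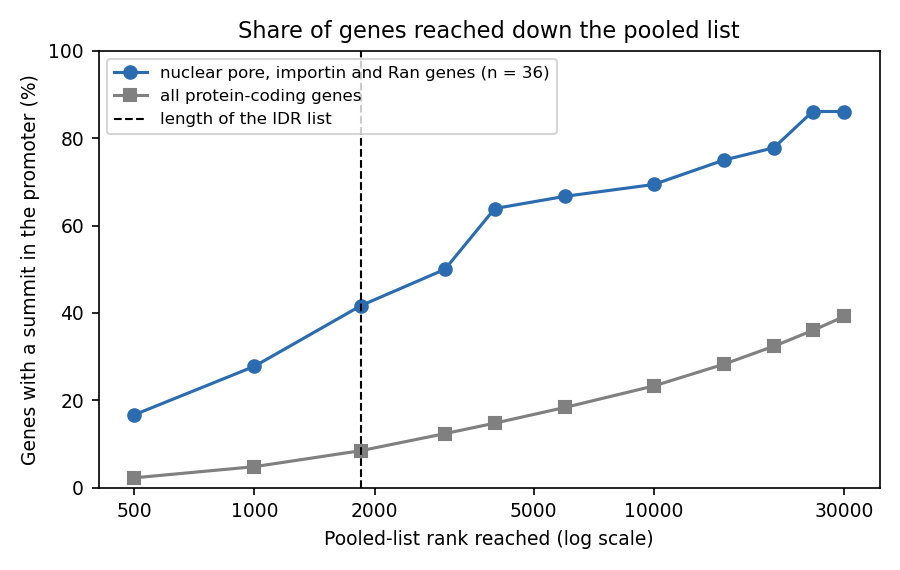
Percentage of genes with a summit in the promoter (vertical axis) down to a given rank of the pooled list (horizontal axis, log scale), for the 36 genes (circles) and all protein-coding genes (squares). The dashed line marks the 1850 peaks of the IDR list, where the shares are 41.7% and 8.51%, and at rank 4000 they are 63.9% and 14.8%.

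The DNA under the summits is shown for 7 occupied genes, chosen to cover the strongest peak, the inner ring, the basket, the membrane, an importin, the Ran cycle and the lowest GC content. Each stretch reaches up to 100 bp to either side of the summit, in the RefSeq sequence of assembly WBcel235 (ce11), read 5′ to 3′ on the strand of the named gene and cut where an annotated coding-gene exon begins. Capitals mark a match on either strand to any of 8 short motifs: the E-box CACGTG, the GC box CCGCCC, the E2F-like motif TTCCCGC, the related motif GCGCGAA, the promoter motif CTGCGTC, the GA repeat GAGAGA, the TATA box TATAAA and the splice acceptor motif TTTCAG. None of the 8 contains another.
npp-8 (chrIV:1595908-1596108, minus strand): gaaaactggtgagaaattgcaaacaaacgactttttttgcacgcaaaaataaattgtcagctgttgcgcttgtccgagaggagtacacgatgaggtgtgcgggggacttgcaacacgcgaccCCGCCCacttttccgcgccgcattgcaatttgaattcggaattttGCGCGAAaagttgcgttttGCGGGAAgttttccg
ima-1 (chrV:11239332-11239475, plus strand): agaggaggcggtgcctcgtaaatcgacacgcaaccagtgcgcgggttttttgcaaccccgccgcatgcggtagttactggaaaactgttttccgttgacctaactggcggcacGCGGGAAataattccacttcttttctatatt
ran-3 (chrII:8325257-8325385, minus strand): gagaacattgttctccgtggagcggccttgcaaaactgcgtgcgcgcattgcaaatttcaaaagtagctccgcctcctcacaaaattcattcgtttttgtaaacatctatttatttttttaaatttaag
npp-3 (chrII:11874789-11874954, minus strand): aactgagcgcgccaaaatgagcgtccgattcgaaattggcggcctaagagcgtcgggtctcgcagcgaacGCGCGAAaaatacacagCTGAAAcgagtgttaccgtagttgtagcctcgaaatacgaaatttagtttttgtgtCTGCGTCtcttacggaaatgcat
npp-16 (chrIII:11915750-11915927, plus strand): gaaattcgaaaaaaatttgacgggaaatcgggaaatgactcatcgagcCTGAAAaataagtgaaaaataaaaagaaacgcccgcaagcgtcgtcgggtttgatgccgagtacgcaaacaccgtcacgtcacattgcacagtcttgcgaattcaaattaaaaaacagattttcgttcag
ran-1 (chrIII:10748090-10748290, minus strand): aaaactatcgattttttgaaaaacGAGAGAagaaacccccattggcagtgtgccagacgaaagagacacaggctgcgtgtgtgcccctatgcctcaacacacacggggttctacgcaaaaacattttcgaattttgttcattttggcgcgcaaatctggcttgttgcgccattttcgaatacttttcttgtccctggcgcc
npp-25 (chrIII:12926292-12926492, minus strand): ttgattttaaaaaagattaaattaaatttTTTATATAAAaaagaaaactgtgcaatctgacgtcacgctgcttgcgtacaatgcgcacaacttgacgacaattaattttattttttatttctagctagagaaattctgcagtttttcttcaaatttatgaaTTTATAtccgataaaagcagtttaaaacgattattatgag

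In these stretches npp-8 had matches to the GC box, to GCGCGAA and to the E2F-like motif, all between the summit and the gene. npp-3 had matches to GCGCGAA, to the promoter motif CTGCGTC and to the splice acceptor motif. The stretch of ran-3 held none of the 8. At npp-25 the only motif was TATAAA, with 2 of its 3 matches overlapping. Over the full windows of 100 bp to either side of the 15 summits, GCGCGAA was found in 3 (npp-8, npp-3 and npp-7), which is 20%, against 5.74% of the 1255 IDR summit windows in promoters and 1.37% of windows of that length placed at the median summit distance, 240 bp, upstream of every gene. TTCCCGC was in 3 (npp-8, ima-1 and imb-3), against 4.78% and 2.41%, and CTGCGTC in 3 (npp-3, imb-1 and imb-3), against 13.4% and 2.8%. GAGAGA, present in 35.2% of the promoter summit windows, was in 1 of the 15, that of ran-1. CCGCCC was in 1 (npp-8; 12.4% of promoter summit windows and 4.3% of gene windows), CACGTG in 2 (npp-12 and imb-3; 3.75% and 3.1%), TATAAA in 1 (npp-25; 13.8% and 24.3%) and TTTCAG in 4 (26.7%; 20.2% and 31.9%). Counts this small say only which letters are present. The GC content of the 15 windows had a median of 40.3% and ran from 26.4% at npp-25 to 48.8% at npp-8, below the median of 42.8% for all promoter summits and above the 33.8% of the gene windows.

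Each group of the pore holds few genes, and differences between groups were not tested. In the inner ring, 3 of 4 genes were occupied, against 8.51% of all genes. npp-8, the NUP155 homolog of that ring, had the strongest peak of the whole set, with a signal of 273 and IDR rank 62. It ranked 69 with a signal of 132 in replicate 2 and 57 with a signal of 149 in replicate 3, so the replicates placed it almost alike. Its summit lay 184 bp upstream of its 5′ end, no other coding gene had that summit in a promoter window, and the peak was 241 bp wide where 13 of the 15 peaks had the modal width of 436 bp. npp-3, the NUP205 homolog, ranked 490 (signal 137), with rank 579 in replicate 2 and 498 in replicate 3 and a summit 66 bp upstream. That summit is shared with top-2, the DNA topoisomerase II gene, whose 5′ end lies 294 bp away on the other side. npp-19, the NUP35 homolog, ranked 855 (signal 111), but its ranks differed, with 519 in replicate 2 and 2492 in replicate 3. npp-13, the NUP93 homolog, had no IDR summit and reached pooled rank 3361, with rank 2043 in replicate 2 and 6126 in replicate 3.

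The outer ring, also called the Y complex, had 1 occupied gene among 8, npp-6. npp-6, the NUP160 homolog, had a peak of signal 148 at IDR rank 389, ranked 332 in replicate 2 and 671 in replicate 3. Its summit, however, lay in an intron of the divergent gene spd-5, which encodes a scaffold protein of the centrosome, 384 bp upstream of npp-6. It was 209 bp inside spd-5 from the outermost 5′ end of that gene and 737 bp upstream of a second annotated one. It was the only summit among the 15 that did not lie between coding genes. Of the other 7 genes, 5 had a pooled summit between rank 1851 and 4000. These were npp-20 (SEC13, rank 2446), npp-5 (NUP107, 3260), npp-2 (NUP85, 3413), npp-10 (3525), whose product is cut into the homologs of NUP98 and NUP96, and npp-15 (NUP133, 3989). With them 6 of the 8 outer ring genes were reached at pooled rank 4000, against 14.8% of all genes. That cutoff was chosen after seeing the data, and npp-15 only just passed it. The count of 1 in 8 in the IDR list, against 8.51% of all genes, thus depends on where the IDR list ends. Among genes with a summit in every list npp-20 split the replicates most, with rank 1260 in replicate 2 and 20607 in replicate 3. npp-23, the NUP43 homolog, reached pooled rank 11865, and npp-18, the SEH1 homolog, had no summit in its promoter in any of the pooled and replicate lists.

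None of the 3 central channel genes was occupied. With 8.51% of all genes occupied, a count of none among 3 does not set this group apart. npp-11, the NUP62 homolog, had its best pooled summit at rank 7420 and npp-4, the NUP58 homolog, at rank 23110. npp-1, the NUP54 homolog, had summits in both replicate lists, at rank 2746 in replicate 2 and 5077 in replicate 3, but none in the pooled list. The nucleoporins of this group carry the repeats that line the transport path.

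Genes of the cytoplasmic face, the nuclear basket and the pore membrane were each occupied at 2 of 3, against 8.51% of all genes. On the cytoplasmic face, npp-14, the NUP214 homolog, had signal 156 at IDR rank 333 (482 in replicate 2 and 316 in replicate 3). npp-9, the homolog of the Ran-binding nucleoporin NUP358, had signal 94.8 at rank 1257 (1284 and 1371 in the replicates). npp-24, the NUP88 homolog, was unoccupied, with pooled rank 16603. In the basket, on the nuclear side, npp-7 (NUP153) had signal 113 at rank 803, with rank 537 in replicate 2 and 1398 in replicate 3. npp-16 (NUP50) had signal 106 at rank 956, with ranks 1283 and 982. The third basket gene, npp-21, the TPR homolog, had no summit in its promoter in the pooled or replicate lists, and its nearest pooled summit lay 6157 bp upstream. Among membrane nucleoporins, npp-12 (NUP210) had signal 126 at rank 619 (663 and 877 in the replicates). npp-25 (TMEM33) had signal 90.8 at rank 1366, where replicate 2 gave rank 918 and replicate 3 rank 2826. npp-22, the NDC1 homolog, had ranks 2717 and 6767 in replicates 2 and 3 and no pooled summit in its promoter. The remaining npp genes, npp-26 (annotated as the nucleoporin GLE1) and npp-27, were unoccupied, at pooled ranks 22991 and 2766.

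The Ran cycle genes of the set, ran-1 and ran-3, were both occupied, against 8.51% of all genes. Ran genes outside the set, described below, were divided. ran-5 had an IDR summit in a promoter window, and ran-2 and ran-4 had none. ran-3, the gene of the exchange factor RCC1, had signal 143 at IDR rank 431, with rank 368 in replicate 2 and 856 in replicate 3. ran-1, which encodes Ran itself, had signal 95.5 at rank 1237, with ranks 1154 and 1409. The summit of ran-3 lay 305 bp upstream of it and 29 bp upstream of the divergent gene C26D10.3. The summit of ran-1 lay 462 bp upstream of it and 239 bp upstream of dkc-1, the homolog of the RNA pseudouridine synthase dyskerin. Neither ran-1 nor ran-3 has the 5′ end nearest to its summit.

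The transport receptors were divided. Of the 3 importin alpha genes, which encode the adaptors that recognise nuclear localisation signals, ima-1 had the second strongest peak of the set, with signal 194 at IDR rank 184 (231 in replicate 2 and 158 in replicate 3). Its summit lay 300 bp upstream of ima-1 and only 44 bp upstream of dvc-1, annotated as a DNA-dependent metalloprotease. ima-3 reached pooled rank 10600 and had no summit in replicate 2. ima-2 had no summit in its promoter in any of these lists. Among importin beta family genes, imb-3 had signal 103 at rank 1037 and imb-1, the importin beta that pairs with importin alpha, signal 90.6 at rank 1373. Both ranked higher in replicate 3, at 520 and 1054, than in replicate 2, at 2710 and 2384. imb-2, the transportin homolog, lay at pooled rank 21698. The exportin genes were unoccupied, with xpo-2, the homolog of the importin alpha exporter CAS, at pooled rank 2461 and xpo-1, the CRM1 homolog, at 5379. imb-3 and xpo-2 are neighbours on the same strand, with 3559 bp between them, and an additional IDR summit (rank 1686, signal 81.7) lay 16 bp inside the far end of imb-3, in the promoter of C53D5.5.

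**Figure D3:**
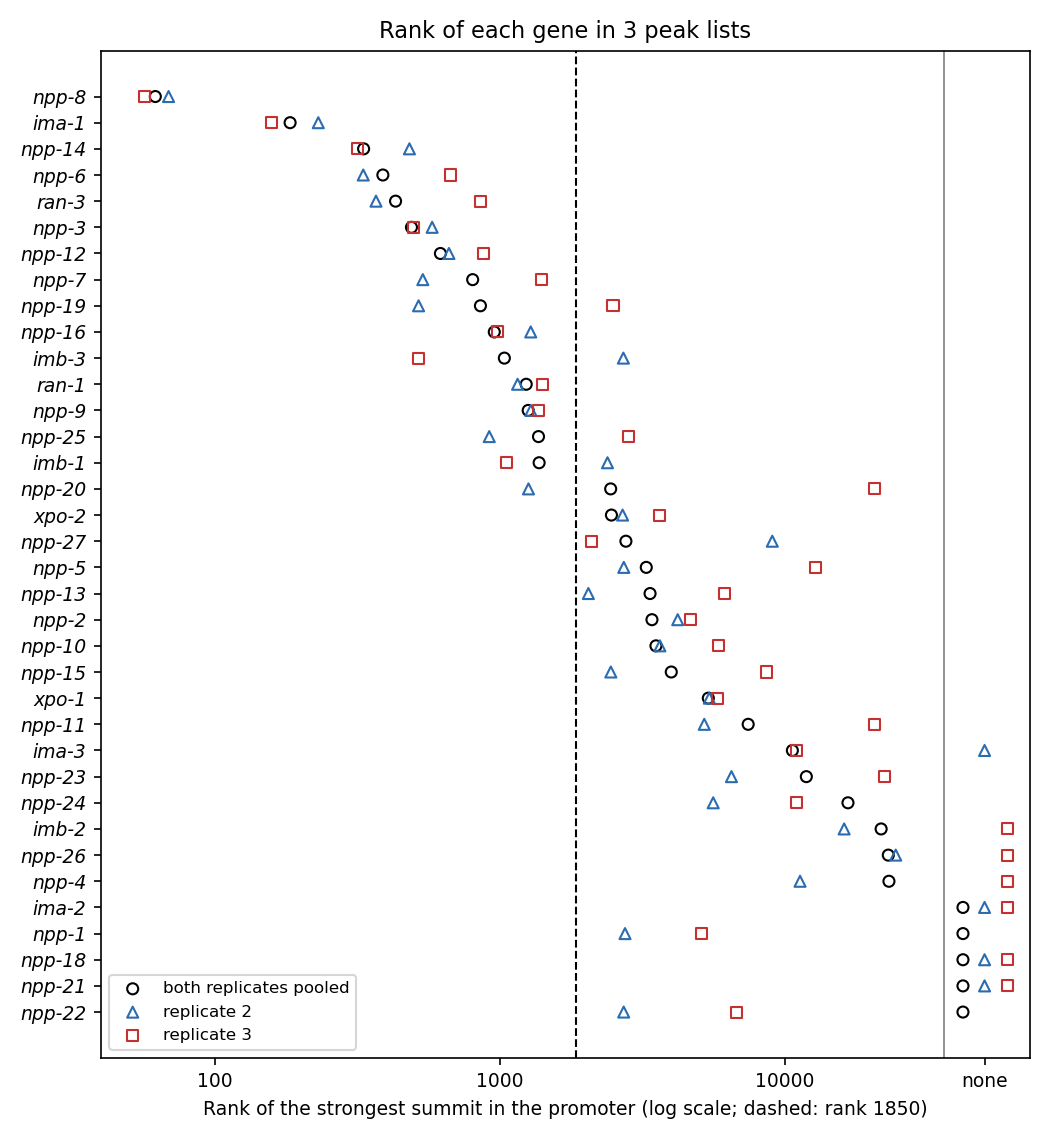
Rank of the strongest summit in the promoter of each of the 36 genes (horizontal axis, log scale, lower is stronger) in the pooled list (circles), replicate 2 (triangles) and replicate 3 (squares), with genes ordered by pooled rank. The dashed line is rank 1850, symbols right of the grey line mark lists with no summit in the promoter, and the widest split is at npp-20, with ranks 1260 and 20607.

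The replicates were compared at these peaks by summit position and by rank. All 15 occupied genes had a replicate 2 and a replicate 3 summit within 100 bp of the IDR summit, at most 91 bp away in replicate 2 and 48 bp in replicate 3. The IDR list was made from these same replicates, so such matches are partly built in. The offsets are bounded by the 100 bp limit, so agreement in position cannot be weighed against agreement in rank. In each replicate 13 of the 15 ranked among the top 1850, and 11 did so in both. The exceptions were imb-1 and imb-3 in replicate 2 and npp-19 and npp-25 in replicate 3. Ranks differed by more than a factor of 2 at 7 of the 15 genes, 8 genes ranked higher in replicate 2 and 7 in replicate 3, and Spearman's rho between the ranks was 0.49 over these 15 genes, which were selected by the same lists. Taken alone, the top 1850 peaks of replicate 2 occupied 14 of the 36 genes (38.9%), against 8.9% of all genes, and those of replicate 3 occupied 13 (36.1%), against 7.36%. Replicate 2 added npp-20 to the set and replicate 3 added none. Among the 14 unoccupied genes with a summit in both replicate lists, 13 ranked higher in replicate 2, and npp-27 was the exception, at 9013 and 2089. Of all 4031 unoccupied genes with a summit in both lists, 55.6% ranked higher in replicate 2, and the difference from that share was not tested.

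In the promoter windows of the 15 occupied genes every IDR summit was upstream of the gene's own 5′ end, from 46 bp at imb-1 to 564 bp at npp-12, with a median of 287 bp, against 240 bp for all occupied genes, 95.2% of which had their strongest summit upstream. Many promoter summits in this genome reach a pair of genes. For 12 of the 15 genes the same summit lay in a promoter window of another coding gene, and the exceptions were npp-8, npp-19 and imb-3. This is 80%, against 54.9% of all 1700 occupied genes. For 8 of the 15 (53.3%) the other gene had the nearer 5′ end, against 28.4% of all occupied genes, and neither difference was tested. These were ima-1, npp-6, npp-7, npp-12, npp-14, npp-25, ran-1 and ran-3. With each summit given only to the gene of the nearest 5′ end, 7 of 36 genes (19.4%) were occupied, against 6.13% of all genes. The partner genes were of mixed kinds. They included cel-1, the mRNA capping enzyme gene, 61 bp from the summit shared with npp-14, mrps-10, a mitochondrial ribosomal protein gene, 165 bp from that of npp-25, and unc-40, a netrin receptor gene, 333 bp from that of npp-7. A peak list cannot tell which partner a shared summit serves, and many worm transcripts are trans-spliced, so an annotated 5′ end may lie downstream of the true start of transcription. No tRNA, snoRNA or small nuclear RNA gene lay within 500 bp of any of the 15 summits.

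**Figure D4:**
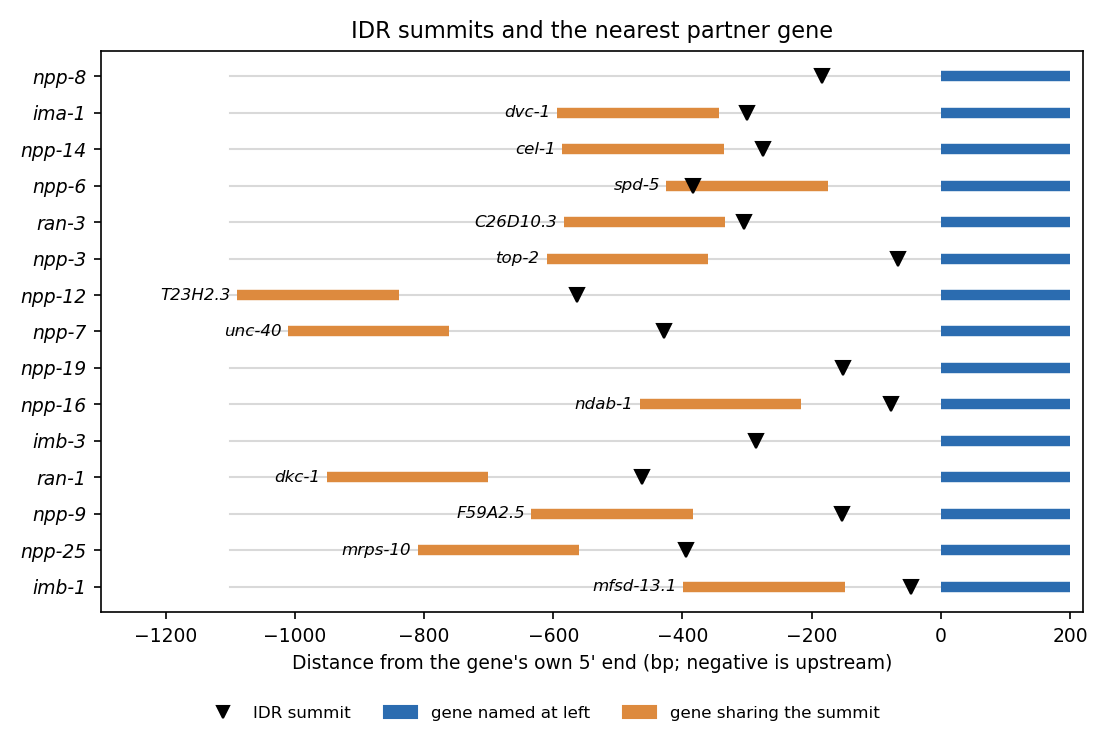
Position of the IDR summit (triangle) relative to the 5′ end of each of the 15 occupied genes (horizontal axis in bp, negative is upstream), with the start of the gene in blue and the start of the nearest coding gene that shares the summit in orange. The summits lie from 46 to 564 bp upstream, 12 of them with a partner gene, and at npp-6 the triangle lies within spd-5.

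The occupied genes were mostly head to head with their upstream neighbour. The closest coding gene upstream was on the opposite strand for 14 of the 15 occupied genes (93.3%), and imb-3 was the exception. Among all 1700 occupied genes the share was 68.9%, and among all genes 45%. Of the 26 genes of the set with an opposite-strand neighbour, 14 (53.8%) were occupied, against 13% of all such genes. Of the 10 with a same-strand neighbour, 1 was occupied, against 4.82% of all such genes. This property was looked at after the summits were seen, and it was not tested. The 9 unoccupied genes behind a same-strand neighbour were ima-2, ima-3, imb-2, npp-1, npp-4, npp-22, npp-23, npp-24 and npp-26. In worms a close same-strand neighbour can mean an operon, in which downstream genes may have no promoter of their own, but operons were not analysed here. Of these 9, only npp-4 had an upstream neighbour that was itself occupied: Y54E5A.5, 536 bp away, with signal 174 at IDR rank 252, a summit 1655 bp upstream of npp-4.

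The genes lay on every nuclear chromosome except X. Chromosome I carries 12 of them, 6 occupied. Of all 19973 protein-coding genes, 2878 lie on I and 2731 on X, and whether the set is unevenly spread was not tested. Chromosome III had 4 of 7 occupied, chromosome II 3 of 7, chromosome IV 1 of 7, which was npp-8, and chromosome V 1 of 3, which was ima-1. Among all genes the occupied share was 11.7% on chromosome I, 12.6% on III, 8.26% on II, 8.02% on IV, 4.79% on V and 8.9% on X.

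Other genes of nuclear transport, the nuclear envelope and its lamina were examined in the same way. Of a list of 26 genes, 6 had an IDR summit in a promoter, which is 23.1% (95% Wilson interval 11 to 42.1%), against 8.51% of all genes, and the difference from the 36 genes was not tested. The strongest was lem-2, which encodes a LEM-domain protein of the inner nuclear membrane, with signal 146 at rank 408 (318 in replicate 2 and 410 in replicate 3). Next were hel-1, an RNA helicase gene of mRNA export (141, rank 449), and ran-5 (134, rank 520). anc-1, which anchors nuclei to actin, had signal 117 at rank 745, and nxf-1, the mRNA export receptor gene, 110 at rank 873. The sixth was emr-1, the emerin gene, at 99.5. The summits of ran-5 and nxf-1 lay nearer to the 5′ end of another gene. With nearest 5′ ends only, 4 of the 26 genes (15.4%) were occupied, against 6.13% of all genes. The lamin gene lmn-1 was unoccupied, at pooled rank 6542, as was mel-28, the gene of the nucleoporin ELYS that starts pore assembly on chromatin, at rank 6954. The Ran partners ran-2, the RanGAP gene, and ran-4, the gene of the Ran importer NTF2, were unoccupied too. ran-4 reached pooled rank 2430.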

How the data were processed

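ChIP-seq peak lists for F13C5.2-GFP in early embryos were used as deposited. Per the deposited file descriptions, the authors called the replicate and pooled lists against 2 control alignments as input for IDR and derived the optimal IDR list from them. No source used here names the aligner, the peak caller or the IDR threshold. Peaks were ranked by the deposited signal score. The deposited −log10 q-value was tied at its maximum of 3.53 for 1692 pooled peaks and was not used. Lists on ce10 were not used here.

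Peaks on ce11 were placed on the Ensembl release 115 annotation of the same assembly (WBcel235). A replicate summit matched within 100 bp. No test was run: the group has no contrast, and shares are given beside those of all protein-coding genes. Motif windows reached 100 bp to either side of the summit or, for every gene, of the base 240 bp upstream of its outermost 5′ end. Members, lists and comparisons were chosen with earlier results of these data known. All members are named. The occupancy functions were tested on simulated data. Scripts ran in Python 3.11.15 with scipy 1.17.1, pandas 2.3.3 and numpy 2.4.6, and plots were drawn with matplotlib 3.10.9. Alternatives were a stricter list, other windows, outermost 5′ ends, any overlap, single replicates, nearest 5′ ends, other matching distances and removal of summits near small RNA genes.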

Additional observations from a re-analysis of the deposited data

How the results depend on the processing

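No paired analysis was possible because the series has 1 group and no result comes from a test. The 15 occupied genes became 9 when only the stronger 50% of IDR peaks was kept, where all genes fell to 890 (4.46%), and 7 (19.4%) with nearest 5′ ends only. With longer lists, chosen after seeing the data, they became 23 at pooled rank 4000 and 31 over the pooled list, with 2948 and 7827 of all genes. The 7 genes with the nearest 5′ end became 3 with the stricter list. Without one replicate the counts ran from 13 to 14 for occupied genes, from 1470 to 1777 for all genes, from 8 to 9 for the other transport and envelope genes (6 in the IDR list) and was 6 either way for nearest 5′ ends (7 in the IDR list), the median distance ran from -283.5 to -274 bp and the median rank of the occupied genes, 803 in the IDR list, from 579 to 877. The narrower window, 500 bp upstream to 100 bp downstream, lost npp-12 (38.9% occupied, against 6.94% of all genes). The wider one, 2000 to 500 bp, added npp-4 (44.4%, against 11.2%). Outermost 5′ ends, any overlap and removal of summits near small RNA genes left the same 15 genes. With matches within 50 bp, 13 of the 15 were matched in both replicates.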

Other observations

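Some promoters had a summit in both replicate lists and none in the pooled list. At npp-1 the replicate summits lay 144 and 174 bp upstream, at ranks 2746 and 5077, and the nearest pooled summit was 14185 bp away. At npp-22 they lay 209 and 343 bp upstream, too far apart to match within 100 bp, and the nearest pooled summit was 22866 bp away. The clearest case in the wider list of transport genes was aly-2, with ranks 1025 and 1363 and summits 315 and 283 bp upstream, among the top 1850 of either replicate. Its nearest pooled summit was 2543 bp away. Across the genome 7418 replicate 2 peaks had a replicate 3 summit within 100 bp, and 88 of them (1.19%) had no pooled summit within 500 bp. Within the top 3000 of both lists there were 3 such peaks among 1497. For npp-1, npp-22 and aly-2, the absence of an IDR peak is therefore not an absence from the replicate lists. Those lists reach deep into background, so a low-ranked summit, as at npp-22 in replicate 3 (rank 6767), is weak evidence of binding. npp-1, npp-22 and aly-2 were named after their values were seen.

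2 genes of the wider list lay just outside the IDR list of 1850 peaks. baf-1, the gene of the chromatin-tethering protein BAF, was at pooled rank 1858, with ranks 2490 and 1562 in replicates 2 and 3. smo-1, the worm SUMO gene, was at pooled rank 1878, with rank 23779 in replicate 2 and 605 in replicate 3. Both were named after their values were seen.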
